A study of Gallus gallus with 9 samples.

Results

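Chicken fibroblasts of the DF-1 line grown as attached 2D cultures were compared with the same line in the suspension culture labelled 3D_L. DF-1 is a spontaneously immortalized line from chicken embryo fibroblasts, and the study moved it from growth on a surface to suspension without carrier beads. Every library carries the genotype label WT and the cell type label fibroblasts, so the groups differ by the culture alone as far as the labels go. The culture labels are 2D, 3D_E and 3D_L, each with 3 libraries, and what E and L stand for is not spelled out in the sources used here. The comparison used 6 of the 9 libraries, 3 of 3D_L and 3 of 2D, and took 10172 of the 15294 genes listed, those with at least 1 FPKM in at least 3 of these 6 libraries. FPKM counts the sequenced fragments of a gene per kilobase of its transcript, scaled to the mapped fragments of the library, here from polyadenylated RNA. The 3 libraries of 3D_E entered only as values beside these and in 1 direct test. The labels do not say that replicates are separate cultures, so p-values measure the spread between these libraries, which may be technical, and all results are of a single line.

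A fibroblast on a surface holds it through integrins, whose clusters, the focal adhesions, anchor contractile bundles of actin and myosin. Pulling on these anchors frees the factors MRTF and YAP to switch on genes of the contractile apparatus and of the matrix, and detached cells lose this pull. Fibroblasts also lay down and cut the matrix, and they answer injury and stress with chemokines, through the factor NF-kB and its inhibitors. Lysosomes, the degradative compartment of the cell, and autophagy, which feeds them, work under nutrient and growth factor control.

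The libraries had summed values of 645027 to 710985 FPKM, and between 9826 and 10145 genes at 1 FPKM or more. The first principal component held 86.8% of the variance and separated the groups. The second, with 7.43%, set 3D_L replicate 3 at 16.2, apart from the other 3D_L libraries at -8.30 and -7.59. Replicates 1 and 2 of 3D_L differed by at least 1 on the log2 scale in 3 genes, replicate 3 differed from them in 52 and 41 genes, and pairs from different groups differed in 625 to 779. Of 14 fibroblast markers found, 13 were tested, 10 rose and 3 fell in 3D_L, the falls being the collagens COL1A1, COL1A2 and COL3A1. These were 76.9% and 23.1% of the tested markers, beside 29.7% and 25.8% of all genes. VIM, which encodes the mesenchymal filament protein vimentin, read 323, 307 and 330.2 FPKM in 2D and 1833, 1843 and 2021 in 3D_L, and PDGFRA, a receptor often used to mark fibroblasts, was below the testing floor at 0.04, 0.04 and 0.07 and 0.25, 0.22 and 0.19.

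In 3D_L, 5645 of the 10172 genes changed, which is 55.5%, at an adjusted p under 0.05 in limma with Benjamini-Hochberg adjustment. Of all tested genes, 3020 rose, or 29.7%, and 2625 fell, or 25.8%. A difference of at least 1 on the log2(FPKM + 1) scale, called strong here, was reached by 497 of the genes that rose (4.89%) and 133 of those that fell (1.31%). That scale understates the change of genes with low values. Which direction held more genes depended on scaling, with 2743 rising and 2964 falling after median-of-ratios scaling and 3351 rising and 2090 falling after scaling to the summed FPKM. The median difference of all genes was 0.02. The groups did not overlap for 6385 genes, or 62.8%. Statements below that the cultures did not overlap, or that every 3D_L library was higher or lower, stand beside this share. Of the tested genes, 249 were below 1 FPKM in every 2D library and at or above it in every 3D_L library, so they entered through 3D_L alone and had to differ, and 70 entered through 2D alone. Of the lists described here, those of the matrix and of lysosomes held 3 members that entered through 3D_L alone, and where no number is given at most 2 members did. No list held more than 1 member that entered through 2D alone.

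**Figure D1:**
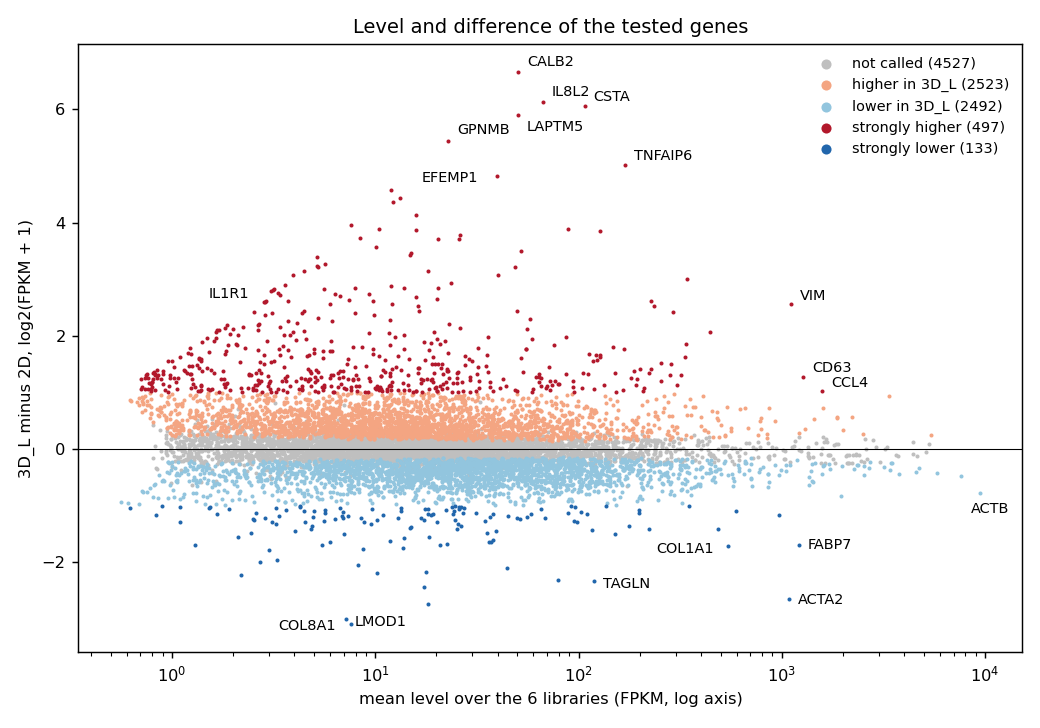
Mean level of each of the 10172 tested genes over the 6 libraries (x axis, FPKM on a log axis) against its difference between 3D_L and 2D (y axis, log2(FPKM + 1)); colours give the limma call. The 497 strong rises reach further from 0 than the 133 strong falls, and ACTA2, FABP7 and VIM combine a strong difference with a high level.

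Genes of inflammation, lysosomes and matrix were among the 20 largest rises, beside genes best known from other tissues. CALB2 encodes calretinin, a calcium buffer of neurons, and had listed values of 0 in 2D and 103, 89.04 and 112 FPKM in 3D_L. CSTA, an inhibitor of cysteine cathepsins, read 2.57, 2.96 and 1.31 FPKM in 2D and 203, 193 and 241 in 3D_L. CYP3A5, a drug- and steroid-oxidizing cytochrome, read 0.09, 0 and 0.04 FPKM in 2D and 25.4, 22.8 and 23.1 in 3D_L. The 20 largest rises were taken among genes whose groups did not overlap, so the separation of these genes was set by the choice. CALB2 and CYP3A5 also entered through 3D_L alone, as did GPNMB, PAPPA2, TNFSF15 and CCK of the genes named next. With a cut of at most 0.1 FPKM in every 2D library and a mean of at least 10 in 3D_L, 5 genes were switched on, CALB2, GPNMB, CYP3A5, PAPPA2 and TNFSF15, and with the reverse cut no gene was switched off. PAPPA2, a protease that frees insulin-like growth factors from their binding proteins, read 0.07, 0.02 and 0.02 FPKM in 2D and 16.6, 16.8 and 12.3 in 3D_L. CCK, which encodes the gut and brain peptide cholecystokinin, read 0.47, 0.15 and 0.16 and 22.7, 25.8 and 30.5. The kinase gene PRKCB rose by 3.89 on the log2 scale and RASGRP3, an activator of RAS proteins, by 3.86. GFPT2, which starts the hexosamine pathway that supplies sugars for matrix polymers, rose 16.1-fold as a ratio of mean FPKM. The endothelin receptor genes EDNRA and EDNRB2 rose by 3.71 and 4.37 on the log2 scale, and the prion protein gene PRNP by 3.73.

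The 20 largest falls held enzymes and carriers of metabolism beside collagens and contractile genes. MAT1A, which makes the methyl donor S-adenosylmethionine, fell from 32.5 to 4.03 mean FPKM, and BBOX1, the last step of carnitine synthesis, from 29.99 to 4.71. FABP7, a fatty acid carrier of neural progenitors, was among the most abundant transcripts in 2D, with 1881, 1887 and 1803 FPKM, and read 537, 535 and 645 in 3D_L. PSAT1, an enzyme of serine synthesis, fell by 3.25-fold and the homeobox gene MSX2 by 3.41-fold. IL17REL, a relative of the interleukin-17 receptors, read 129, 141 and 130.2 FPKM in 2D and 24.2, 25.7 and 27.5 in 3D_L. In linear FPKM the largest gains were of VIM, CD63, CCL4, LGALS1, LDHA, UBB, FTH1 and GAPDH, and the largest losses of ACTA2, FABP7, ACTB and 5 ribosomal protein genes. The call of GAPDH, a glycolytic enzyme with a difference of 0.24, was lost under median-of-ratios scaling and when any 2D library or 3D_L replicate 1 was left out (adjusted p 0.0799 to 0.129). FPKM is scaled to the fragments of the whole library, so the levels of abundant genes bear on the values of all others.

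Inflammatory genes rose as a group in number. Of 75 tested members, 49 rose and 14 fell, 65.3% and 18.7% beside 29.7% and 25.8% of all genes, with a median difference of 0.63. Of the 75, 11 passed the floor of 1 FPKM through 3D_L alone, and 30 of the 105 members found did not pass it. Among 17 chemokines and cytokines, 14 rose and 1 fell. IL8L2, a chemokine of the interleukin-8 family that draws heterophils, the avian neutrophils, read 1.17, 0.47 and 1.15 FPKM in 2D and 131, 132 and 134 in 3D_L (log2 difference 6.13, SE 0.14, adjusted p = 1.26e-08). Its close relative IL8L1 read 0, 0 and 0.06 in 2D and 3.14, 3.14 and 3.55 in 3D_L, and reads that fit both genes may have been shared between them. CCL4, a chemokine for monocytes, was high in both cultures, at 1163, 913 and 1047 FPKM in 2D and 2103, 1914 and 2332 in 3D_L. CCL4 was higher in every 3D_L library than in any 2D library, where 62.8% of all tested genes did not overlap. IL8L1 entered through 3D_L alone, as did CSF3 and TNFSF15 below, so these had to differ. IL8L2 had the largest rise of the list, so its separation is no further result. IL11, a cytokine of stromal cells, rose 16.6-fold to 27.8 FPKM, and CX3CL1, a membrane-bound chemokine, rose 12.6-fold. CSF3, the growth factor of granulocytes, read 0.13, 0.06 and 0.06 FPKM and 5.2, 5.65 and 5.86, and TNFSF15, a TNF family ligand, 0, 0.05 and 0.10 and 11.8, 12.4 and 6.77, with replicate 3 the lowest of 3D_L. CXCL12, the constitutive stromal chemokine that retains blood stem cells, was the member that fell, from 119, 123 and 127 FPKM to 67.2, 60.6 and 54.1.

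Among 21 tested receptors of inflammation, 11 rose and 6 fell, 52.4% and 28.6% beside 29.7% and 25.8% of all genes. IL1R1, the signalling receptor for interleukin-1, read 0.04, 0.11 and 0.12 FPKM in 2D and 6.0, 6.82 and 4.33 in 3D_L, and IL1R2, its decoy, 0.11, 0.14 and 0.28 and 2.67, 2.49 and 2.47. The interleukin-13 receptor genes IL13RA1 and IL13RA2 rose 11.7-fold and 5.96-fold. TNFRSF11B, the decoy receptor osteoprotegerin, rose from 53.1 to 171 FPKM. TLR3, a sensor of double-stranded RNA, fell by 2.09-fold and OSMR, the receptor for oncostatin M, by 1.35-fold. Of 23 NF-kB factors, inhibitors and adaptors, 15 rose and 3 fell, and the strong rises were of NFKBIA, NFKBIZ, TNFAIP3, TNIP1 and the adaptor gene TRAF1. NFKBIZ, an inducible nuclear inhibitor-like regulator, read 3.67, 3.47 and 3.39 FPKM in 2D and 26.4, 28.4 and 29.5 in 3D_L. TNIP1, an inhibitor of NF-kB activation, rose 4.13-fold, and NFKBIA, the main cytoplasmic inhibitor, 2.201-fold. TNFAIP3, the ubiquitin-editing inhibitor A20, read 0.07, 0.07 and 0.12 and 1.35, 1.79 and 1.23. The adaptor and kinase genes MYD88 and IRAK4, which relay signals of toll-like receptors, fell by 1.48-fold and 1.44-fold. Of 14 effector products 9 rose and 4 fell, 64.3% and 28.6%. TNFAIP6, a hyaluronan-binding protein that inflammation induces, read 9.16, 10.03 and 8.63 FPKM in 2D and 317, 324 and 349 in 3D_L, the widest gap among effectors. TNFAIP2 rose 3.67-fold and ACOD1, which makes itaconate, reached 6.36 FPKM from at most 0.05. PTX3, a secreted pattern receptor, and SOD2, the mitochondrial superoxide dismutase that NF-kB induces, fell by 2.49-fold and 1.46-fold.

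**Figure D2:**
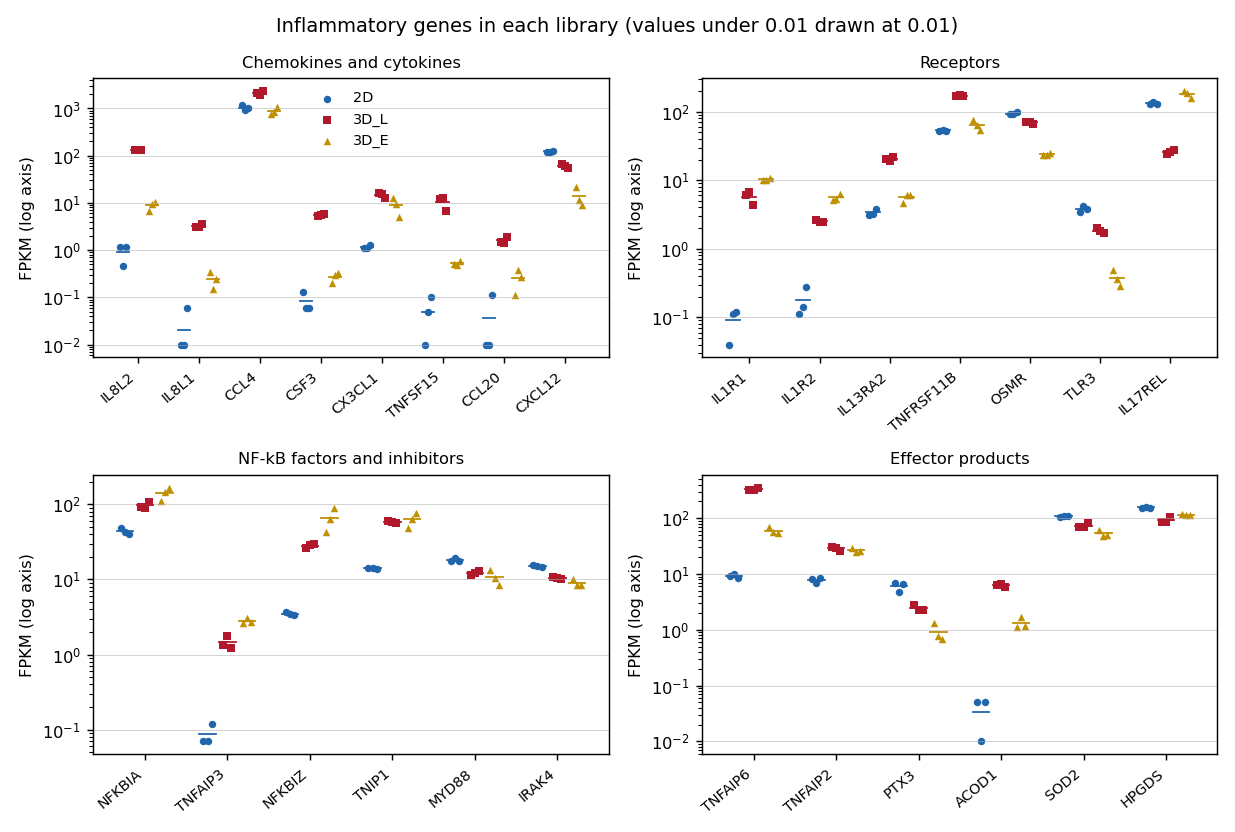
FPKM of inflammatory genes (y axes, log) in each of the 3 libraries of 2D (circles), 3D_L (squares) and 3D_E (triangles), with bars at the means. IL8L2 sits at 131 to 134 in 3D_L and at most 1.17 in 2D, while CXCL12, TLR3, MYD88, SOD2 and IL17REL are lower in 3D_L than in 2D.

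Interferon-induced genes, which share sensors and factors with inflammation, were called in few cases. Of 35 tested members, 7 rose and 6 fell, both smaller shares than over all genes. The median was 0.025, and its sign turned negative under median-of-ratios scaling (-0.014) and quantile normalization (-0.038). STAT2, a factor of the interferon response, rose by 0.52 on the log2 scale and the antiviral membrane protein gene IFITM3 by 0.43. PARP9 fell by 1.86-fold and CD74, the chaperone of class II histocompatibility proteins, by 2.14-fold.

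Contractile genes moved the other way. Of 48 tested genes of the smooth muscle type apparatus and targets of the factor SRF, 31 fell and 7 rose, 64.6% and 14.6%, with a median of -0.496. ACTA2, the smooth muscle actin of contractile fibroblasts, read 1739, 1948 and 1906 FPKM in 2D and 316, 301 and 275 in 3D_L, 6.27-fold lower (adjusted p = 4.33e-08). TAGLN, an actin-binding protein of the same cells, read 201, 188 and 210.5 and 37.8, 36.97 and 41.6. LMOD1, which starts actin filaments in smooth muscle, read 14.1, 12.9 and 13.5 and 0.67, 1.08 and 0.71. ACTA2, TAGLN and LMOD1 were among the 20 largest falls, which were taken among genes whose groups did not overlap. Their separation is thus no further result. CSRP2, a LIM protein of smooth muscle, was at 3.7, 4.76 and 4.24 FPKM in 2D and 0.12, 0 and 0.24 in 3D_L. CSRP2 entered through 2D alone, so it had to differ. PDLIM1, which links actin to the kinase machinery, fell by 4.47-fold, the tropomyosin gene TPM1 by 2.25-fold and MYOCD, the smooth muscle cofactor of SRF, by 2.49-fold. ACTB, the cytoplasmic actin and the most abundant transcript of all 6 libraries, read 12108, 11579 and 11851 FPKM in 2D and 6595, 6622 and 7583 in 3D_L, while ACTG1, the other cytoplasmic actin, rose from 272 to 412. ACTB had the highest FPKM of any gene in each of the 6 libraries, so quantile normalization sets it equal in all of them. Actin genes are near-identical in part of their sequence and can share reads. The myosin genes differed in direction. MYH9, the heavy chain of nonmuscle myosin, and MYL9, a light chain of smooth muscle type, fell by 1.62-fold and 1.52-fold, and MYL12B, a nonmuscle light chain, rose 2.11-fold. CRIP1 and CRIP2, small LIM proteins, were the largest rises of the list, CRIP1 from 0.21 to 10.2 FPKM. CRIP1 entered through 3D_L alone and had to differ.

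In the adhesion machinery falls outnumbered rises. Of 50 tested genes of focal adhesions and integrins, 21 fell and 10 rose. ITGB1, the subunit shared by collagen and fibronectin receptors, read 404, 403 and 413 FPKM in 2D and 262, 265 and 261 in 3D_L, and its laminin-binding partner ITGA3 read 369, 312 and 385 and 238, 213 and 166. ITGA11, a collagen receptor subunit, fell by 1.48-fold. ITGB5, a vitronectin receptor subunit, went up from 135, 123 and 138 FPKM to 387, 379 and 369. None of these integrins overlapped between the cultures, as was so for 62.8% of all tested genes. In the adhesion plaque, TES and VCL, which encode testin and vinculin, fell by 2.599-fold and 1.81-fold and LPP by 2.49-fold, with 3D_L replicate 3 the lowest at 1.58 FPKM for LPP. RHOB, an endosomal relative of the contractility switch RHOA, rose 3.97-fold, and the scaffold gene NEDD9 3.26-fold. Of 26 targets of YAP and TEAD, 9 fell and 4 rose, 34.6% and 15.4%, none of them strongly. The rises numbered 7 without 3D_L replicate 3 and 2 under quantile normalization. CTGF, the standard YAP target, read 593, 480.2 and 539 FPKM in 2D and 337, 363 and 395 in 3D_L, AMOTL2 fell by 1.495-fold, and CYR61 was not called, at 403, 317 and 384 and 390.3, 389.9 and 448 FPKM. WWTR1, which encodes the YAP relative TAZ, rose 1.85-fold. For contacts between cells, 15 of 26 tested genes rose and 4 fell, 3 of the 26 having passed the floor through 3D_L alone. The cadherin genes CDH2 and CDH11, which join mesenchymal cells, rose 1.504-fold and 4.46-fold, and the junctional adhesion gene JAM3 and the protocadherin gene PCDH9 fell by 1.78-fold and 4.13-fold.

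Matrix genes split by class. Of 58 tested, 24 rose and 16 fell, 41.4% and 27.6% beside 29.7% and 25.8% of all genes. Of 8 fibrillar and fibril-associated collagens, however, 6 fell, none rose and the median was -1.35. COL1A1 and COL1A2, the chains of collagen I, read 955, 654 and 909 FPKM and 339, 283 and 356 in 2D and 252, 255 and 248 and 123, 126 and 114 in 3D_L. COL3A1 fell by 1.43-fold, COL5A1 by 2.85-fold and COL12A1 by 5.33-fold. COL8A1, a network collagen of vessel walls, had the largest fall of the 10172 genes on the log2 scale, from 14.99, 13.2 and 14.98 FPKM to 0.76, 0.71 and 0.90. COL8A1 entered through 2D alone and had to differ. The other collagens named so far were lower in each 3D_L library than in each 2D library, where 62.8% of all tested genes did not overlap. Of the other collagens and basement membrane genes, 5 of 13 rose and 3 fell, 38.5% and 23.1%. COL6A2, a chain of microfibrillar collagen VI, rose 1.57-fold, COL7A1, the anchoring fibril collagen, 2.27-fold, and HSPG2, the basement membrane proteoglycan perlecan, fell by 1.76-fold. SERPINH1, the chaperone that folds collagen, read 426, 404 and 445 FPKM in 2D and 227, 220.1 and 206 in 3D_L. Of 20 genes of collagen folding and crosslinking, 7 fell and 4 rose. The falls were a larger share than the 25.8% of all genes, but the median was -0.01. Its sign turned positive with no filter on low values, after scaling to the summed FPKM, and without 2D replicate 1 or 3 (0.021 to 0.05). The prolyl hydroxylase gene P4HA2 fell by 1.48-fold, PCOLCE2, an enhancer of collagen trimming, by 2.77-fold, and the crosslinking enzyme gene LOXL1 rose 1.74-fold.

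Glycoproteins and proteoglycans of the matrix went up more often. Of 24 glycoproteins and matricellular proteins 13 rose and 5 fell, with a median of 0.385. EFEMP1, a fibulin, read 1.76, 1.83 and 1.81 FPKM in 2D and 75.2, 76.8 and 81.5 in 3D_L. POSTN, periostin, which binds collagen in wounds, read 0.96, 0.65 and 0.86 and 29.9, 32.3 and 30.8. EMILIN2, of the elastic fibre surface, read 4.28, 4.32 and 4.6 and 29.1, 31.8 and 24.3. EFEMP1 and EMILIN2 were higher in every 3D_L library, where 62.8% of all tested genes did not overlap. POSTN entered through 3D_L alone, as did MGP and SPP1 below, so these had to differ. FN1, fibronectin, rose 1.65-fold, MGP, an inhibitor of calcification, reached 8.86 FPKM from 0.11, and SPP1, osteopontin, 3.21 from 0.07. SPARC and THBS1, which modulate cell attachment, fell by 1.61-fold and 1.45-fold, while THBS2 rose 3.19-fold. Of 13 genes of proteoglycans and hyaluronan, 6 rose and 2 fell, 46.2% and 15.4% beside 29.7% and 25.8% of all genes. HAS2, the hyaluronan synthase of fibroblasts, read 4.42, 4.98 and 4.65 FPKM in 2D and 41.6, 44.4 and 40.8 in 3D_L. The small leucine-rich proteoglycan genes DCN and LUM, which space collagen fibrils, rose 3.101-fold and 3.01-fold, and PODN, of the same family, fell from 31.4, 28.1 and 29.9 FPKM to 5.66, 5.93 and 5.76.

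Matrix proteases and their inhibitors rose together, 22 of 32 against 6 that fell, or 3 that fell without 2D replicate 3 or after scaling to the summed FPKM, with a median of 0.471. Of the 32, 4 passed the floor through 3D_L alone. MMP2, the gelatinase that fibroblasts make constitutively, was abundant in both cultures and rose 1.47-fold, and MMP9, the inducible gelatinase, read 0.40, 0.25 and 0.39 FPKM in 2D and 3.24, 3.38 and 3.26 in 3D_L. TIMP3, a matrix-bound inhibitor, read 54.2, 60.2 and 67.9 and 509, 423 and 248, with replicate 3 the lowest of 3D_L but far above 2D. CST3, a secreted cathepsin inhibitor, rose 2.49-fold and SERPINE2, a thrombin inhibitor, 2.71-fold. ADAMTS12 fell by 1.74-fold. TIMP2 was at 1180.5, 1004 and 1129 FPKM in 2D and 1403, 1299 and 1296 in 3D_L, and its call was lost when 2D replicate 2, 2D replicate 3 or 3D_L replicate 1 was left out (adjusted p up to 0.0823).

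**Figure D3:**
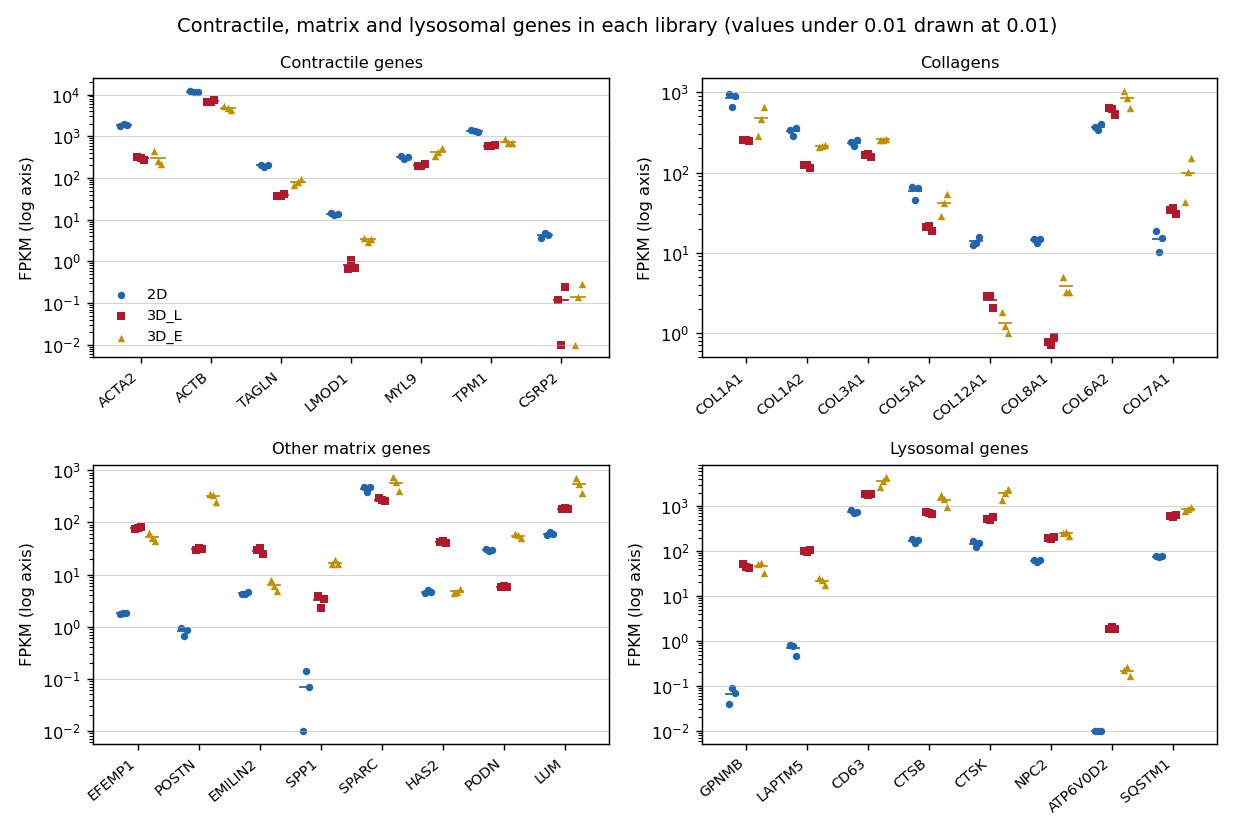
FPKM (y axes, log) of contractile, collagen, other matrix and lysosomal genes in each library of 2D (circles), 3D_L (squares) and 3D_E (triangles), with bars at the means. ACTA2, TAGLN, LMOD1 and the fibrillar collagens are lower in 3D_L than in 2D, and EFEMP1, POSTN, HAS2, GPNMB, LAPTM5 and SQSTM1 are higher.

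Lysosomal genes rose in the largest number of any list, and theirs was also the list with the most tested members. Of 110 tested, 78 rose and 9 fell (70.9% and 8.2%), with a median of 0.479. Of 30 genes of the lysosomal membrane and proton pump, 28 rose and 1 fell, and of 38 cathepsins and hydrolases 30 rose and 2 fell. GPNMB, a glycoprotein of lysosomes and melanosomes, read 0.04, 0.09 and 0.07 FPKM in 2D and 50.5, 45.1 and 41.2 in 3D_L. LAPTM5, a lysosomal membrane protein best known from blood cells, read 0.81, 0.79 and 0.47 and 98.6, 96.9 and 103. CTSB, cathepsin B, read 182, 153 and 174 and 748, 720.4 and 677. The cultures did not overlap for CTSB, as for 62.8% of all tested genes. GPNMB and LAPTM5 entered through 3D_L alone, so they had to differ. CTSK, the collagen-cutting cathepsin, rose 3.63-fold, the cholesterol carrier gene NPC2 3.21-fold, GM2A, the activator of ganglioside breakdown, 3.897-fold and CD63, a tetraspanin of late endosomes, 2.4-fold. CTSD rose 2.64-fold with wide spread in 3D_L, at 264, 245 and 146 FPKM. ATP6V0D2, a pump subunit of osteoclasts, was listed at 0 in 2D and read 1.86, 2.08 and 1.82 FPKM in 3D_L. The hydrolase genes CTSO and GALC fell by 1.63-fold and 1.43-fold. Autophagy genes were more divided, with 20 of 42 rising and 6 falling. SQSTM1, the cargo receptor p62 and a target of the stress factor NRF2, read 76.7, 72.4 and 76.2 FPKM in 2D and 604, 577 and 644 in 3D_L. The initiating kinase gene ULK1 rose 4.57-fold, and ATG10, of the conjugation machinery, fell by 1.82-fold. Of the factors that drive lysosomal genes, MITF rose 2.18-fold and TFEB was not called, at 8.14, 6.56 and 7.59 and 7.24, 7.96 and 6.84 FPKM.

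Immediate early genes and feedback genes of MAP kinase signalling rose, 37 of 49 against 4 that fell (75.5% and 8.2%), with a median of 0.593. Among 28 transcription factors 20 rose and 3 fell, or 5 fell without 3D_L replicate 3. KLF4, a factor of growth arrest and differentiation, read 2.03, 1.26 and 1.77 FPKM in 2D and 14.5, 15.4 and 20.9 in 3D_L. The orphan receptor gene NR4A3 read 0.12, 0.21 and 0.15 and 6.61, 6.8 and 6.54, and CEBPD, an acute-phase factor, 3.23, 2.58 and 2.36 and 18.5, 17.8 and 27.9. KLF4 and CEBPD were higher in all 3D_L libraries, and NR4A3, which entered through 3D_L alone, had to be. FOS rose 2.83-fold and ATF3, a stress factor, 2.17-fold, and EGR1, the serum-induced zinc finger factor, fell by 1.55-fold. Of 21 phosphatases and inhibitors that damp the pathway, 17 rose and 1 fell. The phosphatase genes DUSP1 and DUSP7 rose 4.06-fold and 5.11-fold and SPRY1, a receptor signalling inhibitor, 2.56-fold.

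Of 50 growth factor and receptor genes 28 rose and 11 fell, 56.0% and 22.0% beside 29.7% and 25.8% of all genes. Among ligands, PDGFD, which acts on fibroblasts through PDGFRB, read 73.5, 75.05 and 78.4 FPKM in 2D and 269, 268 and 239 in 3D_L, and PDGFRB itself rose 2.15-fold. IGFBP5, a binding protein of insulin-like growth factors, read 8.16, 6.33 and 8.54 and 97.99, 90.3 and 100.4. ANGPTL4, a lipase inhibitor, read 42.96, 31.9 and 39.4 and 107, 104 and 105. FGF2, a mitogen of fibroblasts, fell by 3.304-fold, the hepatocyte growth factor receptor gene MET by 2.803-fold and the semaphorin and VEGF coreceptor gene NRP1 by 2.78-fold. Genes of TGF-beta and BMP signalling rose in 21 of 41 cases and fell in 3, or 5 under median-of-ratios scaling, and 4 of the 41 had passed the floor through 3D_L alone. INHBB, a chain of activin, read 0.71, 0.67 and 0.70 FPKM in 2D and 8.18, 8.53 and 7.86 in 3D_L. The BMP-induced inhibitors of differentiation ID1 and ID2 rose 3.54-fold and 2.64-fold, and the BMP antagonist gene NBL1 3.11-fold. Wnt genes were at the share of all genes, 10 of 30 rising and 7 falling, 33.3% and 23.3%. Among them WIF1, a secreted Wnt inhibitor, and the receptor gene FZD8 rose by 1.48 and 1.50 on the log2 scale, and the ligand gene WNT5B fell by 2.3-fold.

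Most genes of division and DNA synthesis fell, by less than 1 on the log2 scale in nearly every case. Of 100 mitosis genes, 71 fell and 1 rose, with a median of -0.365, and of 82 genes of DNA replication and nucleotide synthesis, 62 fell and 1 rose, with a median of -0.323. All members of these lists that were found passed the floor on low values. CDK1, the kinase that starts mitosis, read 486, 489 and 456 FPKM in 2D and 279, 299 and 355 in 3D_L, 1.53-fold lower. MKI67, the proliferation marker Ki-67, read 36.3, 40.3 and 38.3 and 24.2, 27.2 and 22.5, and TOP2A, the topoisomerase of dividing cells, 136, 154 and 157 and 113, 113 and 91.6. The cultures did not overlap for these genes, as for 62.8% of all tested genes. PLK1, a mitotic kinase, fell by 1.19-fold, and CENPA, the centromeric histone, by 2.65-fold, the largest fall of the mitosis list. In DNA synthesis, DCTD, which supplies thymidylate precursor, fell by 2.46-fold, TYMS by 1.74-fold, the origin-firing kinase gene CDC7 by 2.18-fold and the sliding clamp gene PCNA by 1.26-fold. Of 43 DNA repair genes 25 fell, RAD52 by 2.08-fold, and 4 rose, or 2 without 2D replicate 3 and 1 under quantile normalization. A lower share of dividing cells and less of these RNAs in each cell cannot be told apart in bulk libraries. Genes of p53 and arrest were divided, 13 of 35 rising and 10 falling, 37.1% and 28.6% beside 29.7% and 25.8% of all genes. CDKN2A, a locus of senescence and arrest, read 156, 145 and 143 FPKM in 2D and 374, 391 and 501 in 3D_L, BTG2, an antiproliferative gene, rose 2.47-fold, and MDM2, the p53 antagonist, fell by 1.87-fold, as did CCND1, the cyclin of growth factor signalling, by 1.99-fold. Of 40 apoptosis genes 14 rose and 12 fell, shares near the 29.7% and 25.8% of all genes, with a median of 0.07. The survival gene MCL1 rose 2.31-fold, and RIPK3, a kinase of necroptosis, rose 4.64-fold.

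The machinery of protein synthesis was lower. Of 55 genes of ribosome biogenesis, 43 fell and 2 rose (78.2% and 3.6%), with a median of -0.357, and of 19 tRNA synthetase genes 14 fell and none rose. LYAR, a nucleolar protein, read 40.3, 42.95 and 36.96 FPKM in 2D and 20.8, 22.2 and 22.9 in 3D_L, and NPM3, a histone chaperone of the nucleolus, 473, 450.1 and 438 and 259.9, 241 and 277. TARS and IARS, which charge threonine and isoleucine tRNAs, fell by 2.12-fold and 1.82-fold. All 4 were lower in each 3D_L library than in each 2D library, where 62.8% of all tested genes did not overlap. Of 71 ribosomal protein genes, 33 fell and none rose, with a median of -0.242, but this count turned on single libraries. Without 3D_L replicate 3, in which the ribosomal proteins stood 0.276 (median, log2) above the other 3D_L libraries, 60 fell. Without 3D_L replicates 1 or 2 the falls numbered 15 and 18, and without 2D replicates 1, 2 or 3 they numbered 18, 16 and 21. Under quantile normalization 39 fell and 8 rose, and 6 rose after scaling to the summed FPKM. RPS29 read 1863, 1795 and 1462 FPKM in 2D and 1054, 1042 and 1298 in 3D_L. The factor ATF4 answers amino acid shortage, and 14 of 27 genes of that response fell while 4 rose. ASNS, asparagine synthetase, read 295, 352 and 316 FPKM and 159.7, 173 and 182, PSPH, of serine synthesis, fell by 2.33-fold, ATF4 itself by 1.304-fold, and the amino acid transporter gene SLC38A2 rose 1.799-fold.

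Chaperones fell too, with 29 of 45 heat shock genes falling and 10 rising, a median of -0.267. HSP90AA1, the inducible cytosolic HSP90, read 936, 1183 and 1018 FPKM in 2D and 724, 719 and 639.5 in 3D_L, and HSPA2 fell by 1.69-fold. HSPB9, a small heat shock protein, rose 4.66-fold. In the endoplasmic reticulum, 15 of 48 folding and unfolded protein genes fell and 6 rose, 31.2% and 12.5%. Without 3D_L replicate 3 or after scaling to the summed FPKM, 10 rose. The main chaperones HSPA5 and HSP90B1 fell by 1.37-fold and 1.34-fold, and SELENOS, of the retrotranslocation complex, rose 1.502-fold. Proteasome genes rose in 13 of 36 cases and fell in 2, 36.1% and 5.6%. The rises numbered 7 under median-of-ratios scaling, 19 under scaling to the summed FPKM, and 7, 8 and 6 without 2D replicates 1, 2 and 3. PSMD1, of the regulatory particle, rose 1.3-fold. Genes of the NRF2 response to oxidants rose, 23 of 42 against 6 that fell, or 10 that fell without 3D_L replicate 3. HMOX1, heme oxygenase, read 120.2, 118 and 111 FPKM in 2D and 284, 264 and 273 in 3D_L, PRDX6, a peroxiredoxin, 110.5, 101 and 115 and 283, 268 and 319, and NQO1, a quinone reductase, rose 2.19-fold. HMOX1 and PRDX6 were higher in each 3D_L library than in any 2D library, where 62.8% of all tested genes did not overlap.

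Of 30 genes of cholesterol synthesis and uptake, 17 fell and 3 rose, or 6 rose without 3D_L replicate 3, with a median of -0.266. HMGCS1, which commits acetyl units to the pathway, read 129.7, 159.9 and 139 FPKM in 2D and 81.7, 85.6 and 77.8 in 3D_L, and LSS, lanosterol synthase, fell by 1.72-fold. Fatty acid genes were divided, 18 of 40 rising and 14 falling, 45.0% and 35.0%, and 3 of the 40 had passed the floor through 3D_L alone. CPT1A, the gate of mitochondrial fatty acid entry, rose 2.96-fold while CPT2, the next step, fell by 2.27-fold, and PLIN2, the coat of lipid droplets, rose 2.46-fold. Of 48 glycolysis and hypoxia genes, 21 rose and 13 fell, 43.8% and 27.1%. Without 2D replicate 3 or after scaling to the summed FPKM, 7 fell. LDHA, lactate dehydrogenase, read 1139, 1322 and 1161 FPKM and 1965, 1903 and 2088, and VEGFA, the angiogenic factor, rose 1.86-fold. Of 21 citrate cycle genes 8 fell and 2 rose, or 4 without 3D_L replicate 3 and 1 without 2D replicate 2, 2D replicate 3 or 3D_L replicate 1, with cytosolic IDH1 up 2.07-fold and OGDH down by 1.49-fold. Of 66 nuclear genes of the respiratory chain, 15 fell and 8 rose, 22.7% and 12.1%, both smaller shares than over all genes. Without 3D_L replicate 3, where the list stood 0.263 above the other 3D_L libraries, 33 fell and 6 rose. The rises numbered 4 or 5 without any other single library, 5 under median-of-ratios scaling and 14 after scaling to the summed FPKM. In xenobiotic and steroid metabolism 12 of 19 genes rose and 4 fell, 5 of the 19 having passed the floor through 3D_L alone. CYP26B1 and ALDH1A3, which destroy and make retinoic acid, read 0.28, 0.25 and 0.23 and 0.39, 0.25 and 0.29 FPKM in 2D and 11.5, 10.8 and 11.1 and 5.2, 5.2 and 4.51 in 3D_L.

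**Figure D4:**
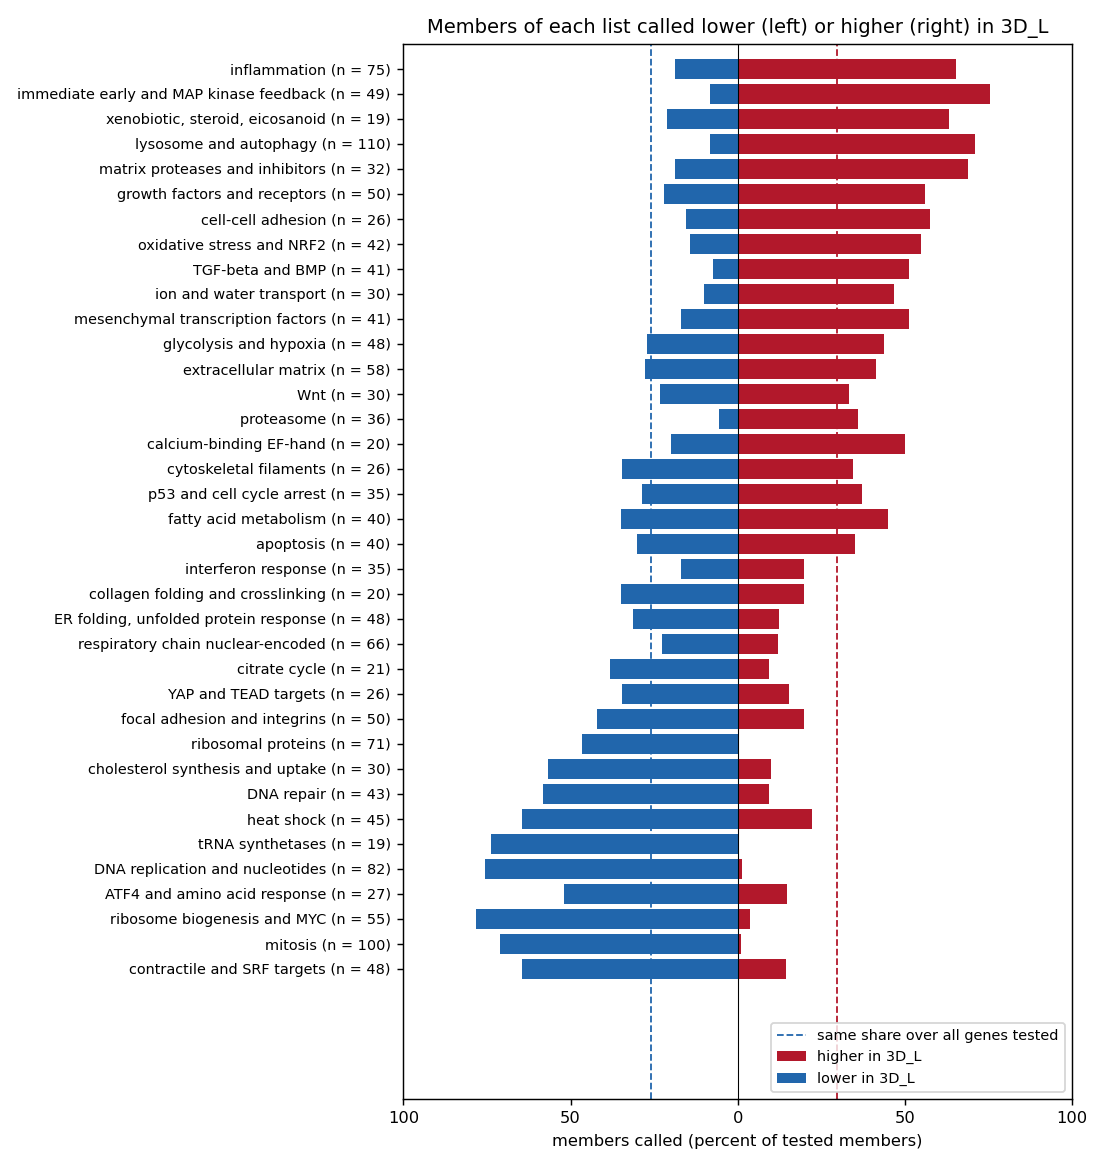
Percent of the tested members of each list called higher (right) or lower (left) in 3D_L than in 2D, for lists with at least 15 tested members, sorted by median difference; dashed lines give the same shares over all 10172 genes, 29.7% higher and 25.8% lower. Immediate early genes (75.5%), lysosomal genes (70.9%) and matrix proteases and their inhibitors (68.8%) extend furthest to the right, and ribosome biogenesis (78.2%), replication (75.6%) and tRNA synthetase genes (73.7%) furthest to the left.

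Of 26 genes of intermediate filaments, lamins and tubulins, 9 rose and 9 fell, 34.6% each beside 29.7% and 25.8% of all genes. NEFL, a neurofilament chain, rose 6.26-fold and MAP2, a microtubule protein of dendrites, 3.33-fold, and TUBB6 fell by 2.03-fold. Calcium-binding EF-hand genes rose in 10 of 20 cases and fell in 4, a split of 8 and 8 without 3D_L replicate 3, while the falls numbered 2 without 2D replicate 2, 2D replicate 3 or 3D_L replicate 1. Ion and water transport genes rose in 14 of 30 cases and fell in 3. The potassium channel gene KCNJ5 read 5.96, 6.41 and 6.75 FPKM in 2D and 15.7, 14.9 and 13.6 in 3D_L, and TRPC6, a calcium entry channel, fell by 2.47-fold. AQP1, a water channel, was not called, at 394, 401 and 415 and 516, 494 and 402 FPKM, except without 3D_L replicate 3 (difference 0.32, adjusted p = 0.000539). Of 41 mesenchymal transcription factor genes, 21 rose and 7 fell. PRRX1, a factor of limb and wound fibroblasts, read 135, 117 and 126 and 311, 308 and 342, SNAI2 rose 5.99-fold and its relative SNAI1 fell by 1.64-fold.

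Markers of other cell types were mostly at or near 0. Of 30 blood and immune markers found, 24 were below 1 FPKM in all 6 libraries, C1QC, CD79B and HBBA were listed at 0, and the list summed to 19.9 to 24.8 FPKM in 2D and 17.4 to 18.7 in 3D_L. Of its 5 tested members none rose and 3 fell. Of 25 neural, glial and pigment cell markers, 17 were below 1 FPKM in all 6 libraries and OCA2, SLC45A2, SOX10 and SYT1 were listed at 0, but all 8 tested members rose, 4 of them having passed through 3D_L alone. Their sum was 64.5 to 76.6 FPKM in 2D and 129 to 158 in 3D_L. GAP43, a growth cone protein, read 0, 0 and 0.08 FPKM and 5.51, 6.6 and 6.26. PMP2 was listed at 0 in 2D and read 2.88, 2.85 and 4.31 in 3D_L. The RefSeq table names it FABP9, so its place among glial markers rests on the deposited symbol alone. Cartilage and bone markers rose in 4 of 6 tested cases and fell in none, 1 of the 6 having passed the floor through 3D_L alone. COMP, a cartilage matrix protein, rose from 1.16 to 6.31 FPKM and RUNX2, the bone factor, from 2.13 to 6.48, with ACAN listed at 0. Of 18 skeletal and cardiac muscle markers, 17 were below 1 FPKM and MYOM1 rose 4.63-fold. Of 5 tested endothelial and smooth muscle markers 2 rose and 1 fell, and 1 of the 5 had passed the floor through 3D_L alone. Of 3 tested fat cell markers 2 rose. Of 18 epithelial markers 16 were below 1 FPKM in all 6 libraries. Of the 2 tested, 1 entered through 3D_L alone and 1 through 2D alone, so 1 rise and 1 fall were set by the floor. Of 11 pluripotency and germ cell markers 9 were below 1 FPKM, and the 2 tested, KLF5 and TFAP2C, rose. None of 13 mitochondrially encoded genes was found under its name. The part these markers play in the results was not tested.

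The 3D_L libraries were also tested directly against the 3D_E libraries, over the genes that passed the floor in the 2D and 3D_L libraries. Genes that reach the floor in 3D_E alone were thus not tested. In this test 2322 genes were higher in 3D_L (22.8%) and 2009 lower (19.8%). These counts rested on single libraries. Without 3D_E replicate 1 they were 3121 and 3112, without 3D_E replicate 2 they were 1319 and 972, and without 3D_L replicate 1 they were 1483 and 1116, without 3D_L replicate 2 they were 1445 and 1107, and without 3D_L replicate 3 the genes lower in 3D_L numbered 1302. Both this comparison and that with 2D use the same 3D_L libraries, so values are set side by side. Division genes were higher in 3D_L than in 3D_E in 93 of 100 cases and lower in none, with a median of 1.645, and replication genes in 69 of 82 cases, with 1 lower and a median of 1.018. CDK1 read 56.5, 44.4 and 41.1 FPKM in 3D_E, under its 3D_L values given above. Cholesterol genes were higher in 3D_L in 23 of 30 cases and lower in 1, and HMGCS1 read 14.7, 10.2 and 7.52 FPKM in 3D_E. With any 1 library left out, at least 87 mitosis genes, 59 replication genes and 20 cholesterol genes were higher in 3D_L. Of 48 contractile genes, 11 were higher and 9 lower, near the 22.8% and 19.8% of all tested genes. With 1 library left out, 6 to 13 were higher and 7 to 14 lower. ACTA2, at 442, 260.2 and 216 FPKM in 3D_E, was not called (log2 difference 0.02, adjusted p = 0.943). Lysosomal genes were lower in 3D_L in 40 of 110 cases and higher in 9, with CTSK at 1354, 1974 and 2416 FPKM in 3D_E, and matrix genes were lower in 29 of 58 and higher in 12. Without 3D_E replicate 1, 19 lysosomal genes were higher, and leaving out other single libraries gave 30 to 54 lower. Matrix genes were lower in 19 cases without 3D_E replicate 2, 3D_L replicate 2 or 3D_L replicate 3, and higher in 7 without 3D_E replicate 2 or 3D_L replicate 2.

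Among inflammatory genes 35 of 75 were higher in 3D_L than in 3D_E and 18 lower. With 1 library left out the higher genes numbered 24 to 38 and the lower 9 to 16, with 9 lower without 3D_E replicate 2 and 11 without 3D_L replicate 1 or 2. The classes differed. Of 17 chemokines and cytokines 11 were higher and 3 lower, of 21 receptors 12 and 5, and of 14 effector products 8 and 1. Of 23 NF-kB factors, inhibitors and adaptors, however, 4 were higher in 3D_L and 9 lower. IL8L2 read 6.79, 9.36 and 10.4 FPKM in 3D_E (3.78 higher in 3D_L on the log2 scale, adjusted p = 2.14e-05), and CSF3 0.20, 0.30 and 0.32. HAS2 read 4.37, 4.69 and 5.24 in 3D_E, near its 2D values, and TNFAIP6 68.96, 55.9 and 55.1, between 2D and 3D_L. PAPPA2 and GAP43, at 0.33 and 0.38 mean FPKM in 3D_E, were also higher in 3D_L. Like CSF3, they passed the floor through 3D_L alone and had means below it in 3D_E, so this direction was set. POSTN read 355, 340.1 and 252 FPKM in 3D_E, above 3D_L, and PODN and IL17REL, which were low in 3D_L, read 59.2, 58.4 and 49.3 and 199.5, 186 and 159. NR4A3, at 36.2, 42.4 and 46.8 in 3D_E, was likewise lower in 3D_L. KCNJ5 read 1.52, 1.58 and 1.52 in 3D_E, below both other cultures.

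**Figure D5:**
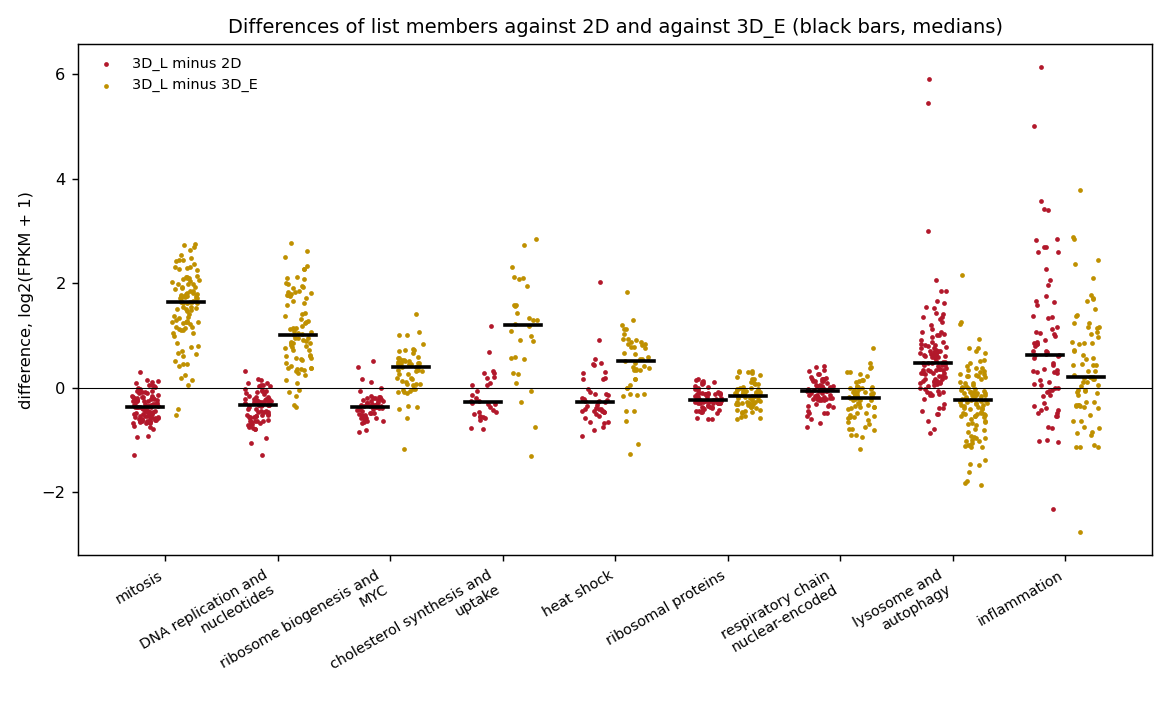
Difference of each tested member of 9 lists (y axis, log2(FPKM + 1)) for 3D_L minus 2D (red) and 3D_L minus 3D_E (yellow); points are genes and black bars medians. Mitosis genes have a median of -0.365 against 2D and 1.645 against 3D_E, and the ribosomal proteins have medians of -0.242 and -0.151.

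Within 3D_L, replicate 3 was the library apart in the 8 genes with the widest spread at a mean of at least 10 FPKM, of which 4 are given here. DCHS1, a protocadherin of tissue polarity, read 57.8, 54.5 and 18.5 FPKM in the 3D_L libraries, and LOC396224, which the RefSeq table names LMNA, for lamins A and C, read 98.03, 87.8 and 32.7. Both were low in replicate 3, and neither was called against 2D unless that library was left out, with differences then of 1.34 and 0.80. MT3, a metallothionein, read 201, 128 and 367, and CHCHD10, a mitochondrial protein, 9.17, 11.6 and 28.9, both highest in replicate 3 and neither called. The list medians that stood highest in replicate 3 against the other 3D_L libraries, among lists with at least 15 tested members, were those of the ribosomal proteins (0.276), the respiratory chain (0.263), the EF-hand genes (0.209) and the proteasome (0.19), and the matrix stood lower, at -0.141. Inflammatory genes differed by -0.041 and mitosis genes by -0.014.

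Strongly changed genes were also read along the chromosomes, in the gene order of RefSeq's assembly GRCg7b, over 9817 tested protein-coding genes. In 10 runs, 3 neighbours in a row changed strongly in 1 direction, 30 genes in all, with no test of how many runs chance gives. ZPLD1, IL1R2, IL1R1, ARHGAP32, SNAP91, PRSS35, ME1 and CCL20 had means below 1 FPKM in 2D, as had COL8A1 and LOC101751418 in 3D_L. Members that entered through 1 culture alone had to differ in that direction. On chromosome 1, IL1R2, IL1R1 and IL1RL1, neighbouring genes of the interleukin-1 receptor family, rose together, IL1RL1 from 1.01 to 4.16 mean FPKM. On the same chromosome NFKBIZ stood beside ZPLD1 and CBLB, a ubiquitin ligase that rose 3.07-fold, and COL8A1 beside DCBLD2 and CMSS1, which fell by 2.33-fold and 3.12-fold. On chromosome 24, FLI1, an ETS factor, rose 7.61-fold beside KCNJ5 and ARHGAP32. On chromosome 9, CCL20, a chemokine, stood beside PID1 and DNER, which rose 2.98-fold and 5.98-fold. On chromosome 8, PODN fell between SCP2, a lipid transfer protein that fell by 2.87-fold, and CPT2. The other 4 runs held SNAP91, PRSS35 and ME1, which rose, IL13RA2, LRCH2 and FYTTD1L, which rose, CHIR-AB1, LOC107049967 and TARM1L, which rose, and CG-16, STBD1 and LOC101751418, which fell.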

How the data were processed

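RNA of DF-1 cells was sequenced in 9 libraries, grouped by the culture named in each title. Trizol extraction and bead selection of polyadenylated RNA are given per the labels' protocols, so RNA lacking a poly-A tail is measured poorly. Per the file headers, the authors' values are FPKM for each gene in each library. They carry 2 decimals. The submitters' processing notes list HISAT2 2.0.5, R 3.4.2, DESeq2 and GRCg6a, with no role for any. No source used here gives the annotation, the strand setting or the handling of reads that match several genes. The depth is unknown, so no counting interval is given. Because FPKM is relative to the library, a value depends on all its other genes.

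The table held 15294 named genes and 1 line naming none, which was left out. Its 82 unnamed columns were not used. Symbols are printed as deposited. The RefSeq table of GRCg7b, another build, served for gene order and for names, and gives another symbol for 903 genes (among them LGALS1B for CG-16, CCN2 for CTGF, LGALS1A for LGALS1 and FABP9 for PMP2). No sequences or coordinates are given, and promoter motifs were not searched.

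Log2(FPKM + 1) values of the 6 libraries went into a linear model in limma 3.58.1 (R 4.3.3) with a trended empirical Bayes variance and 4 residual degrees of freedom. Tests were 2-sided, with Benjamini-Hochberg adjustment over the 10172 genes that reached 1 FPKM in 3 or more libraries. The test of 3D_L against 3D_E used their 6 libraries and the same genes. Genes with an adjusted p below 0.05 are called changed, and strongly changed where the difference was also 1 or more in size. The fit was tested on simulated data. Folds are ratios of mean FPKM. The 47 gene lists, with 2444 entries of which 2150 were found, are described by counts and medians without a test. The comparison, lists and rule for named genes were chosen with earlier results of these data known. Named genes were the 20 largest rises and falls at a mean of at least 10 FPKM without overlap, key genes and up to 4 rises and 4 falls per list role, genes on in 1 culture only, the 8 largest linear differences each way, the 8 with the widest spread in 3D_L, and neighbours changed together, and a part of these is printed. Some items are not reported here. TRAF1 and the marker genes listed at 0 were added after their values were seen. Alternatives were other pseudocounts, filters, scalings, fits and each library left out. The list counts under each of these were added after seeing the data. Figures were drawn with matplotlib 3.10.9.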

Additional observations from a re-analysis of the deposited data

How the results depend on the processing

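Of 242 genes named and tested, 225 kept their direction and their side of the threshold under all 16 alternatives that tested them. The fit of all 9 libraries gave 3737 changed genes, of which 1695 fell. With a pseudocount of 5, 211 genes rose strongly and 57 fell strongly, and with 0.1, 203 fell strongly. Rises outnumbered falls except after median-of-ratios scaling, quantile normalization (2528 and 3137) and with a floor of 5 FPKM (2342 and 2346). With 1 library left out, 4755 to 6361 genes changed, 2583 to 3362 rose, 2172 to 2999 fell, 467 to 512 rose strongly and 126 to 136 fell strongly. Against 3D_E the same gave 1319 to 3121 higher and 972 to 3112 lower. Genes that reversed were uncalled ones. MT3 ran from -0.129 to 0.625 and CHCHD10 from -0.062 to 0.717 with 1 library left out, each below 0 only without 3D_L replicate 3. TFEB, near 0, ran from -0.088 to 0.048 in the same way, above 0 without 2D replicate 1 or 3 or 3D_L replicate 3, and was 0.046 after scaling to the summed FPKM. The call of 10 genes, among them STAT2, PLK1, HSP90AA1 and CDH2, was lost in the fit of all 9 libraries. The causes were not tested.

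No label says that replicate numbers pair the samples. Deviations of same-numbered libraries correlated at -0.197, 0.0957 and -0.405, and those of differently numbered libraries at -0.319 to 0.36. With 3 libraries a group these values cannot decide whether the numbers pair libraries. A replicate block gave 2740 rises, 2283 falls, 497 strong rises and 132 strong falls, and 2267 higher and 2019 lower against 3D_E. Of the named genes it ended the call of GAPDH alone. Of 46 list medians, 7 changed sign under some alternative. With 3 libraries a group, exact permutation of 1 value cannot go below 0.1. The unknown depth limits the precision of values near 0 most.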
